A study of Drosophila melanogaster with 3 samples.

Results

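The 201 distal exonic peaks of topi-eGFP in white prepupae are the reproducible peaks whose summit lay inside an annotated exon and over 500 bp from any annotated transcription start site (TSS). They were chosen by position alone, from the 8424 peaks of the deposited optimal list thresholded by the irreproducible discovery rate (IDR), and made up 2.39% of it. Of the 201 summits, 14 lay in coding exons, 49 in 5' untranslated regions (5' UTRs), 57 in 3' UTRs and 81 in exons of non-coding RNA genes. A summit in exons of several kinds was counted once, with coding placed before 5' UTR, 3' UTR and non-coding. That choice touched 2 summits, at Coq4 and ftz-f1. The other IDR peaks were 3458 with a distal intronic summit, 1458 with a distal intergenic one and 3307 within 500 bp of a TSS.

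The data are chromatin immunoprecipitation and sequencing (ChIP-seq) with an anti-GFP antibody on whole white prepupae of Drosophila melanogaster, males and females pooled. The transgenic line stably expresses topi with GFP fused to its C terminus. The series holds 1 group of 3 libraries, biological replicates 1 to 3, with no other genotype, treatment or stage. All 3 libraries share 1 control alignment, and no library from flies without the tag was used here, so peaks that depend on topi and peaks that do not cannot be told apart. Whole animals were used, so no peak can be assigned to a tissue. The depth of each library is unknown, since the peak lists hold no read counts. The labels number the replicates without naming separate collections, so the spread between them may be technical.

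The zinc-finger protein Topi (matotopetli) is a subunit of the meiotic arrest complex of the testis, which activates spermatocyte genes. Sequence-specific factors mostly bind at promoters, in introns and between genes. An exon carries further constraints, since coding exons spell protein, UTRs hold the signals for translation, stability and localization of an mRNA, and exons of long non-coding RNAs (lncRNAs) have few constraints of that kind.

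The short sequences at the strongest peaks of each exon class show what DNA lies under these summits. They are given for the 3 strongest peaks of each class that could be printed, from the RefSeq dm6 genome, plus strand, 29 bases each. The capitals mark the match, out of 14 motifs scanned over 100 bp on either side and on both strands, that lies closest to the summit. No motif was found at Raf or eas, so their stretch is centred on the summit. In coding exons these are Ubr1 at chrX:16967549-16967577 with CGATA, a match to the BEAF-32 motif, CG5895 at chr3L:16037099-16037127 with TGTCA, the TGIF motif, and klar at chr3L:506206-506234 with TTTGAA, the CHR motif. In 5' UTRs they are baz at chrX:17178634-17178662 with the CHR motif, Raf at chrX:2296257-2296285 and eas at chrX:16279523-16279551. In 3' UTRs they are APC7 at chrX:6599469-6599497 with TGATAA, the motif of GATA factors, CG7872 at chrX:15579754-15579782 with CAGGTAG, the Zelda motif, and stas at chrX:17624952-17624980 with the BEAF-32 motif. In non-coding exons they are CR46035 at chr3R:17704462-17704490, Vinr at chrX:12751295-12751323 and CR44619 at chrX:12754463-12754491, each with the CHR motif. The 12 stretches share no single motif.
Ubr1: agaactcgatgaTATCGgagcggtctagt
CG5895: gcacaaggctttTGTCAtggctaaccgcg
klar: agttgtagttcgTTTGAAtggccgcccag
baz: ttatatttttatTTCAAAataatgctagt
Raf: gtaacgcatatcaacggattgtcggggat
eas: agcataattccgatttaaaattgcctttg
APC7: aacaatagtcctTTATCAtccattgtcta
CG7872: caattatacccCTACCTGgctggtcacaa
stas: cttgacacgcacCGATAaaaactaatcat
CR46035: tcatatatttctTTCAAAgaattcttctc
Vinr: ttgaaatgaaatTTTGAAatataaatttt
CR44619: acacgtgactctTTCAAAacatgtacatc

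The exon classes differed in how densely they held summits. Distal coding exons held 0.751 IDR summits per Mb (95% interval 0.411 to 1.26), from 14 summits in 18.64 Mb. Distal 3' UTRs held 9.62 per Mb (7.29 to 12.5), from 57 summits in 5.925 Mb. Distal 5' UTRs held 60.5 per Mb (44.8 to 79.9) and distal non-coding exons 75.9 per Mb (60.4 to 94.3), although these classes cover only 0.8102 Mb and 1.067 Mb. Distal introns held 65.5 per Mb (63.8 to 67.1) and distal intergenic DNA 40.0 per Mb (38.1 to 41.9). Thus, over all distances together, the intervals of 5' UTRs and non-coding exons included the density of introns. Those of coding exons and 3' UTRs lay below it. Distance from a TSS was not balanced between these classes. At 501 to 1000 bp lay 44.9% of distal 5' UTR, 42.0% of non-coding exon and 8.35% of intronic DNA. That stretch held 16.4% of intronic summits, so summits were denser there. It held 61.2% of 5' UTR and 50.6% of non-coding exon summits. Densities at like distance from a TSS were not compared, so the likeness to introns does not hold for a given distance. Over all exons the density was 7.60 per Mb (6.60 to 8.71), and that of introns was 8.61 times as high. The intervals are Clopper-Pearson intervals of the share of all IDR summits, scaled to the length of DNA, and cover counting error only.

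**Figure D1:**
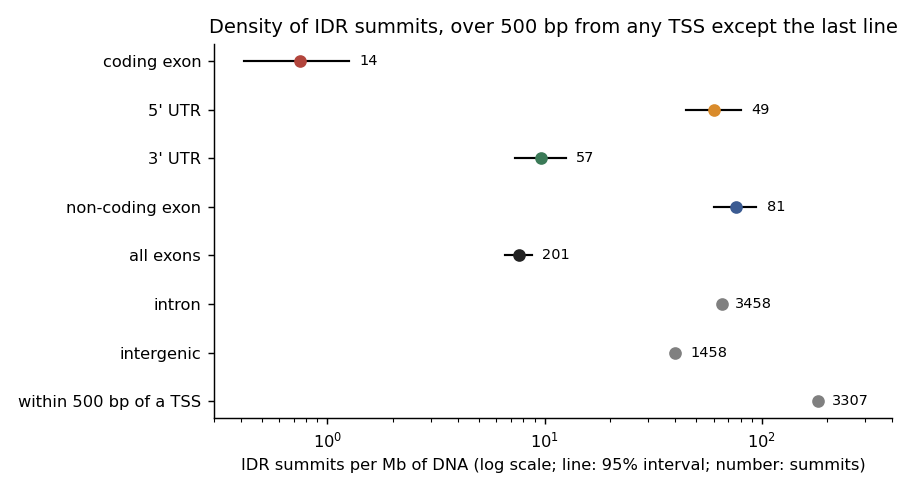
Density of IDR summits per Mb of DNA in each annotation class on a log axis, with 95% Clopper-Pearson intervals as lines and the number of summits beside each point. Coding exons, at 0.751 per Mb, stand lowest. Over all distances together, 5' UTRs stand at 60.5, non-coding exons at 75.9 and introns at 65.5. Distance from a TSS is not balanced between the classes, so these values do not compare DNA at like distance.

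The low share of exonic summits was seen in each replicate's own list. The IDR set was made from these libraries, so this is no independent check. Among the 8424 strongest of the 30000 peaks listed for each library, 224, 206 and 195 had a distal exonic summit in replicates 1, 2 and 3, which is 2.66%, 2.45% and 2.31%. Among the remaining 21576 peaks of each list the share was 9.58%, 7.02% and 6.37%. The mean was 2.47% ± 0.174 in the strongest peaks and 7.66% ± 1.70 in the remaining peaks (SD, n = 3 libraries). The strongest peaks had the lower share in 3 of 3 libraries, by a mean of -5.18 ± 1.53 percentage points (two-sided exact sign-flip permutation test, p = 0.25, the smallest p that 3 libraries allow). The classes did not move alike. Coding exons took 0.166%, 0.154% and 0.119% of the strongest peaks and 5.62%, 1.81% and 1.84% of the remaining peaks. Non-coding exons took 1.06%, 0.843% and 0.902% of the strongest peaks and 1.04%, 1.22% and 1.16% of the remaining ones. In the pooled list, 201 of the 8424 IDR peaks and 1155 of the 20304 peaks that overlapped no IDR peak by 50% of either were distal exonic. Of the 201, 6.97% lay in coding exons and 40.3% in non-coding exons, compared with 24.0% and 21.4% of the 1155.

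The deposited signal, the authors' enrichment value for a peak in the pooled list, had a median of 166.1 over the 201 peaks (95% order-statistic interval 144.2 to 182.3) and ran between 94.18 and 3050. The median was 179.6 in distal introns, 174.7 in distal intergenic DNA and 179.8 over all IDR peaks, all inside that interval. By class it was 161.1 in coding exons, 142.0 in 5' UTRs, 166.5 in 3' UTRs and 182.9 in non-coding exons. The strongest 842 peaks of the IDR list held 18 of the 201 (8.96%), with 8 of 57 in 3' UTRs, 4 of 49 in 5' UTRs, 6 of 81 in non-coding exons and 0 of 14 in coding exons.

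**Figure D2:**
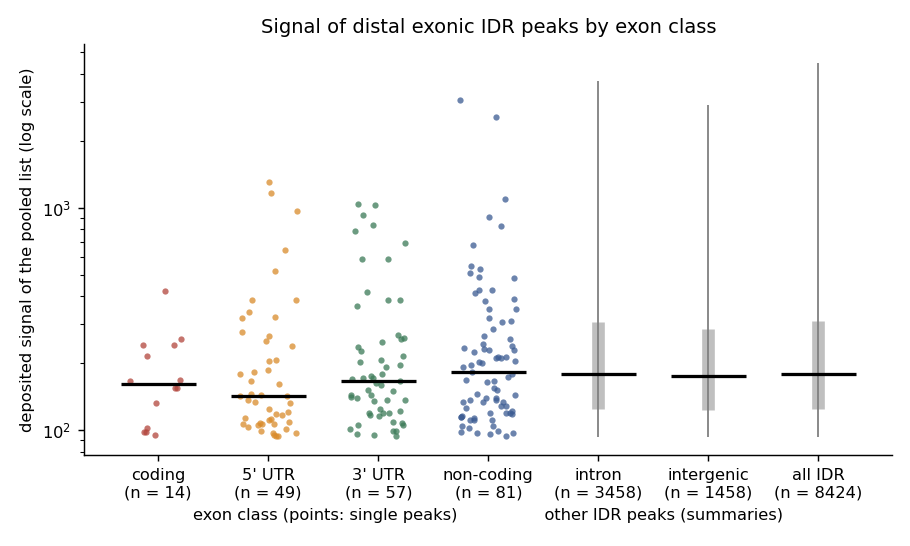
Deposited signal of each distal exonic peak (points, log axis) by exon class, beside distal intronic, distal intergenic and all IDR peaks, drawn as range (thin line), quartiles (bar) and median (black line). Coding peaks reach 421.5 at most, whereas the other classes each hold peaks over 1000.

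Of the 201 peaks, 165, 167 and 171 were found among the 8424 strongest peaks of replicates 1, 2 and 3, counting a peak as found when it overlapped by 50% of either peak. These shares, 82.1%, 83.1% and 85.1%, stand beside 82.1%, 84.0% and 89.3% of all IDR peaks. In all 3 replicates 128 were found (63.7%), against 66.0% of all IDR peaks, and none was missing in all 3. The share averaged 83.4% ± 1.52 for exonic, 86.3% ± 3.81 for intronic and 86.8% ± 3.90 for intergenic peaks (SD, n = 3 libraries). The difference was -2.85 ± 3.48 percentage points from intronic and -3.37 ± 4.29 from intergenic peaks, lower in 2 of 3 libraries each, and did not exceed the spread between libraries (two-sided exact sign-flip permutation test, p = 0.5 for both). Since the IDR set was made from these replicates, this is a description of it and no independent check.

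The median rank of the overlapping replicate peak, with 1 the strongest, was 5029, 4854 and 4663 for exonic peaks in replicates 1, 2 and 3. It was 4030, 4362 and 4160 for intronic and 4182, 4562 and 4404 for intergenic peaks. Exonic peaks thus ranked weaker in 3 of 3 libraries, by a mean of 664 ± 290 ranks than intronic and 466 ± 330 ranks than intergenic peaks (exact sign-flip permutation test, p = 0.25 for both). The classes differed, with medians of 4342, 6144 and 4446 in coding exons and 5773, 5082 and 5503 in 5' UTRs. They were 5506, 5121 and 4633 in 3' UTRs and 4415, 4260 and 4384 in non-coding exons. Non-coding peaks thus ranked stronger than intronic ones in replicate 2 and than intergenic ones in replicates 2 and 3. The rank differences of all exonic peaks depended on the settings. With 50% overlap of both peaks they were 451 ± 496 from intronic (exact p = 0.5) and 61.2 ± 592 ranks from intergenic peaks (exact p = 1.0). Among the stronger 50% of IDR peaks they were 68.7 ± 153 and -78.5 ± 105 ranks, and without replicate 1 the difference from intergenic peaks was 276 ranks. Peaks with no listed overlap, 13, 1 and 0 exonic ones in replicates 1, 2 and 3, have no rank and were left out of the medians. Of the 13, 8 lay in 5' UTRs, the class with the lowest mean share found, 78.2% ± 4.25, compared with 85.7% ± 7.14 in coding exons, 84.8% ± 2.03 in 3' UTRs and 85.2% ± 2.14 in non-coding exons.

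**Figure D3:**
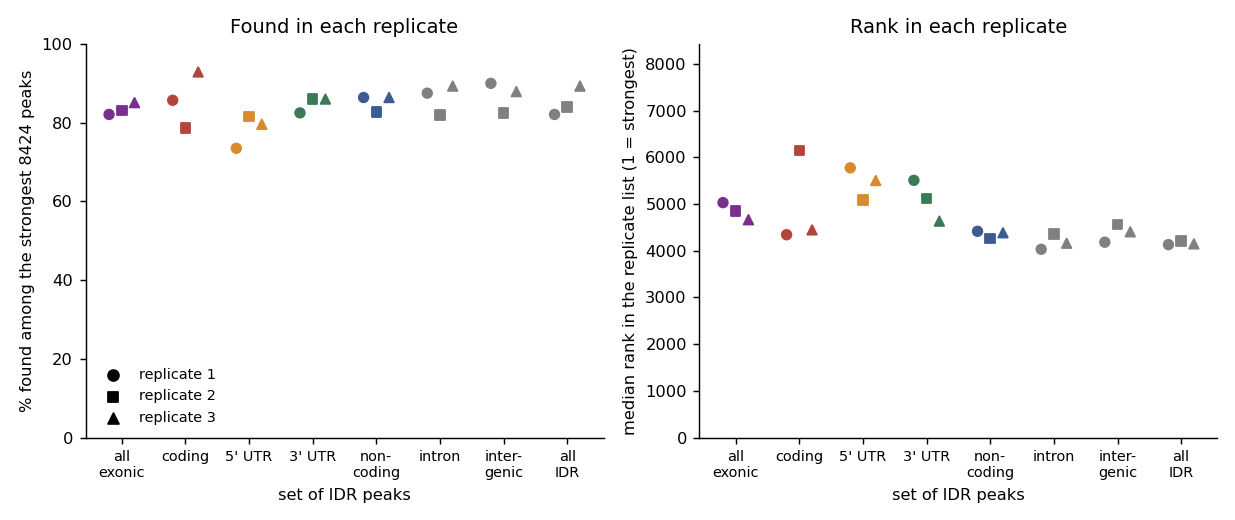
Share of each set of IDR peaks found among the strongest 8424 peaks (left) and median rank of the overlapping peak (right) in replicates 1 to 3, with exonic sets in colour and the other sets in grey. Exonic peaks have higher rank numbers than intronic and intergenic peaks in every replicate, and 5' UTR peaks in replicate 1 have the lowest share found.

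Coding exons held the fewest peaks, and none of the 14 was among the strongest 842 IDR peaks. The strongest lay in otp, which encodes a homeodomain transcription factor (2R, 20884443 to 20884728), with a signal of 421.5, and ranked 1027, 1560 and 1502 in replicates 1 to 3. Ubr1, a ubiquitin ligase of the N-degron pathway, followed with 256.5 and ranks of 3841, 2802 and 2489. CG5895 had 242.5, and klar, whose product positions nuclei on microtubules, had 241.6. The signal was 214.7 in Pde1c, a cyclic nucleotide phosphodiesterase, whose peak had no counterpart in replicate 2 and ranked 2717 and 3918 in replicates 1 and 3. CG10357 (167.8), the splicing regulator su(w[a]) (167.1), the actin-binding bif (155.2), l(3)mbn (154.3) and CG11668 (132.2) stood in the middle. The weakest were CG31673 (102.9), toc (98.33), CG6678 (98.08) and Socs36E (95.72), an inhibitor of JAK/STAT signalling. The replicates spread most for the weak ones, with toc at ranks 25379, 7043 and 7499 and CG31673 at 5235, 21616 and 8052. Socs36E ranked 1846, 2163 and 2186, but the replicate peaks it overlapped had their own summits 197, 184 and 200 bp away.

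Some coding summits lay near an exon's border, as did some of the other classes. The median coding exon with a summit was 440 bp long, and 5 of the 14 summits were within 50 bp of its edge, that in CG31673 at 1 bp. So were 22 of 81 non-coding, 4 of 49 5' UTR and 4 of 57 3' UTR summits, in exons with longer medians of 1348, 977 and 1813 bp. The share of exonic DNA that near an edge was not computed. The peak interval was wholly exonic for 7 of 14, and for l(3)mbn only 46.3% of it was exonic. Around coding summits the GC content over 201 bp had a median of 55.0%, compared with 42.3% in 5' UTRs, 36.3% in 3' UTRs, 33.8% in non-coding exons and 34.3% over all IDR peaks. Of the 14, 8 had no other IDR summit within 5000 bp, whereas this held for 23.4% of all 201 and 25.6% of all IDR peaks.

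In 5' UTRs, baz, the Par-3 scaffold of epithelial and neuroblast polarity, held the strongest peak (X, 17178484 to 17178929). Its signal was 1307, and it ranked 164, 101 and 122 in replicates 1, 2 and 3. The same 3624-bp exon held summits of 266.5 and 109.5, so baz had 3 distal exonic peaks, at 15960, 16745 and 18696 bp from the gene start. Fbl6, an F-box gene, had 1162, at ranks 152, 187 and 165. Raf, the kinase between Ras and MEK, had 971.5, at 308, 301 and 223. The ethanolamine kinase gene eas had 643.0 and ranks of 372, 1083 and 541, the widest spread of these. The repressor gene cic, a target of EGFR signalling, had 520.6 and ranks of 688, 1068 and 1053. eas also held a 3' UTR peak of 139.0.

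Most 5' UTR summits were exonic in only some transcripts. For 30 of 49, another annotated transcript of the gene that spans the summit has an intron there, as at baz (exonic in 2 of 4 transcripts), Fbl6 (1 of 3), eas (2 of 8) and cic (1 of 2). That left 19 of 49 in an exon of every spanning transcript, compared with 13 of 14 coding, 54 of 57 3' UTR and 78 of 81 non-coding summits. Their median distance from a TSS was 805 bp, and 30 of 49 (61.2%) lay 501 to 1000 bp away, where 44.9% of distal 5' UTR DNA lies. The number was 19 with a TSS distance of over 1000 bp. With replicate 3 left out it was 28, counting only peaks found among the strongest of both other replicates.

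The 57 peaks of 3' UTRs were led by 3 genes on X. APC7, a subunit of the anaphase-promoting complex, had a signal of 1035 (X, 6599301 to 6599691) and ranked 262, 297 and 179. CG7872 had 1032, at 323, 202 and 221, and stas had 925.6, at 322, 277 and 326. CG33307 followed with 836.4 and Ance-3 with 782.3, both on 2L. All 5 stayed within the strongest 500 peaks in each replicate. Around 3' UTR summits the nearest TSS often belonged to another gene, in 31 of 57, as at APC7 where the TSS of pigs was 561 bp away. This held for 8 of 14 coding, 26 of 81 non-coding and 6 of 49 5' UTR summits. The summit lay within 500 bp of the end of the host gene in 29 of 57. A 3' UTR lies towards the end of its gene by definition. Neither count was set beside the same share of distal 3' UTR DNA, so both are a description only.

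Lsd-2, which encodes a perilipin of lipid droplets, held 4 summits in its 3' UTRs, with signals of 386.8, 201.8, 149.7 and 94.8, at 6670, 6469, 5157 and 4958 bp from the gene start. The strongest ranked 3731, 863 and 1853 in the replicates. The last 2 overlapped the same peak in replicates 1 and 2, at ranks 6475 and 6445, so they are not separate measurements there. Further IDR summits lay in an intron of Lsd-2, with 377.7, and 39 bp from its TSS, with 112.8.

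The X chromosome held 26 of the 57 distal 3' UTR summits (45.6%, Clopper-Pearson interval 32.4 to 59.3), although 23.5% of distal 3' UTR DNA lies there. They fell in 23 of the 53 host genes or gene pairs. The density was 18.7 per Mb on X and 6.84 per Mb on the autosomes. Introns leaned the same way by less, with 84.9 summits per Mb on X and 60.8 on the autosomes. Among the strongest 8424 peaks of each replicate, X held 40.3%, 40.0% and 43.5% of distal 3' UTR summits and 26.3%, 22.8% and 25.2% of distal intronic ones. The difference was 16.5 ± 2.30 percentage points (SD, n = 3), higher for 3' UTRs in 3 of 3 libraries (exact sign-flip permutation test, p = 0.25). Lower in the lists, among the remaining peaks, X held 19.0%, 20.5% and 24.5% of 3' UTR summits and 20.2%, 20.0% and 21.9% of intronic ones. Males and females were pooled, so the number of X copies behind these values was not given. The class was singled out for X after its values were seen.

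**Figure D4:**
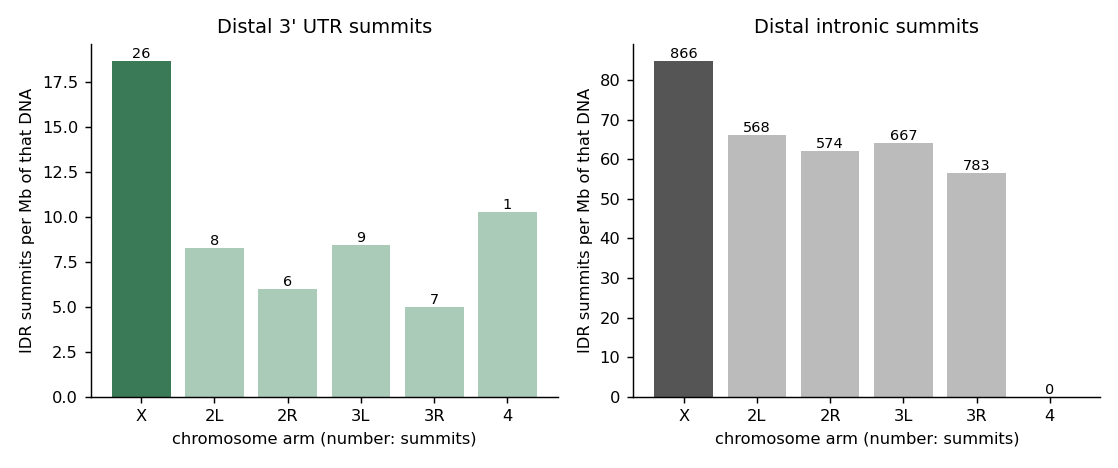
IDR summits per Mb of distal 3' UTR DNA (left) and of distal intronic DNA (right) on each chromosome arm, with the number of summits above each bar. The 3' UTR density on X, 18.7 per Mb, stands above each autosomal arm, the highest of which, chromosome 4 at 10.3 per Mb, rests on 1 summit.

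In the other classes X held 12 of 49 distal 5' UTR summits (24.5%), 3 of 14 coding ones and 12 of 81 non-coding ones (14.8%), beside 866 of 3458 distal intronic summits and 20.2% of all IDR peaks. On the small chromosome 4, 3 distal exonic summits stood beside 0 distal intronic ones. The strongest of them, in the 3' UTR of the calsyntenin gene Cals, had a signal of 693.3.

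Non-coding exons held the most peaks and the strongest. In the lncRNA gene CR46035, which lies inside the gene osa, the peak had signals of 785.0, 1006 and 1276 in replicates 1, 2 and 3 and ranked 10, 14 and 8. In Vinr it had 741.2, 808.7 and 997.3 and ranked 13, 28 and 27. Signals are not scaled between libraries, so only the ranks can be set side by side, and both peaks stayed among the 28 strongest of each list. CR44619, which overlaps the end of Vinr and has the TSS nearest to the Vinr summit, 507 bp away, had 1100 in the pooled list and ranked 170, 237 and 180. CR45226, inside plum, had 908.5 and ranks of 386, 288 and 307. In 24 of 81 cases the lncRNA exon also lay inside another gene, compared with 6 of 57 3' UTR and 3 of 49 5' UTR summits and 0 of 14 coding ones. The summit was within 500 bp of the gene's end in 44 of 81. Non-coding hosts had a median length of 1662 bp, and DNA within 500 bp of a TSS was left out. The share of distal non-coding exon DNA that near a gene's end was not computed, so this count is a description only.

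The lncRNA gene CR43334, the host of the microRNA bantam, held 6 of the 201, more than any other gene. Bantam promotes growth and blocks cell death. Each annotated transcript of CR43334 is a single exon, and the longest spans its 15466 bp (3L, 628435 to 643900). The summits lay 1743, 5301, 6381, 8176, 10728 and 12334 bp from the gene start, with signals of 119.8, 196.4, 351.1, 230.6, 134.4 and 827.6. The last one, 1439 bp before the bantam hairpin and 1055 bp from an internal TSS, ranked 519, 354 and 385 in the replicates. The second strongest ranked 1556, 2251 and 1755, and the weakest ranked 6482, 6667 and 7462, while the summits of 196.4 and 230.6 ranked 2863 and 3370 in replicate 1 and 3851 and 2505 in replicate 2. The strongest and second strongest held their places in each library, and the order of the others varied. An IDR summit of 522.0 followed past the gene's end, at 15888 bp.

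**Figure D5:**
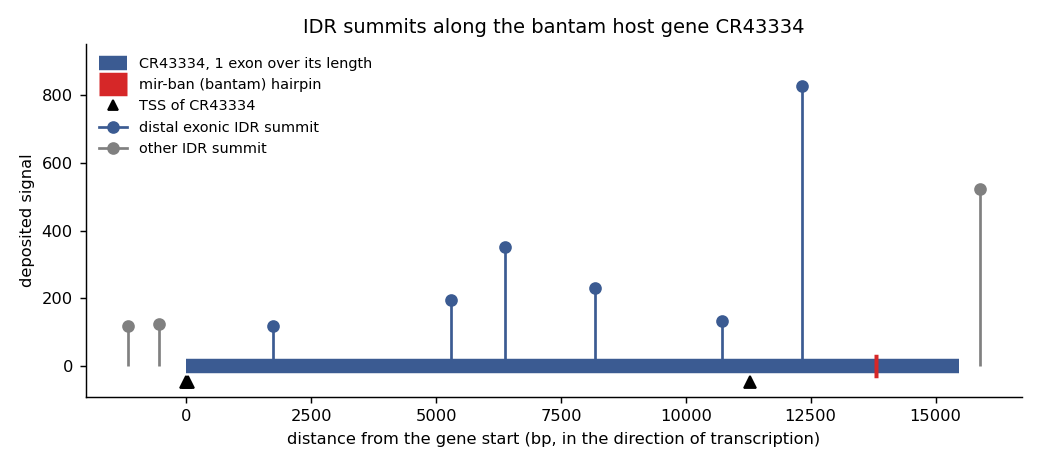
Deposited signal of the IDR summits along CR43334 by distance from the gene start, with the gene, its TSSs and the bantam hairpin drawn to scale below. The strongest of the 6 exonic summits, 827.6 at 12334 bp, lies between the internal TSS and the hairpin.

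CR43650, the other lncRNA gene with 3 or more peaks, held 3, with signals of 193.2, 133.6 and 117.8. Of the 184 host genes, 171 held 1 peak, 9 held 2 and 4 held 3 or more. Those 184 are 1.01% of the 18164 genes annotated. By kind, 70 of 3261 non-coding RNA genes (2.15%) and 114 of 13945 protein-coding genes (0.817%) were hosts. Hosts were long for their kind, with a median of 1662 bp for non-coding hosts and 7196 bp for coding hosts, against 558 and 2166 bp over all genes of each kind. The rule itself favours long genes, since a gene of 500 bp or less cannot hold a summit over 500 bp from its own TSS.

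In 11 gene lists that cover signalling, hormone response, growth, chromatin, RNA control, spermatogenesis and lncRNAs, 10 of 208 matched genes were hosts (4.81%), beside 1.01% of all genes. The lists were chosen with earlier results of these data known, so these shares are a description only. Gene length was not balanced in this count. With replicate 1 or replicate 3 left out, 6 were hosts, counting only peaks found among the strongest of both other replicates. The ecdysone response list had 4 of 28. The ecdysone receptor gene EcR had a 5' UTR peak of 111.5 (ranks 6710, 9074 and 9366). The gene ftz-f1, which encodes a nuclear receptor of the prepupal stage, had a 5' UTR peak of 101.1, unlisted in replicate 1 and at ranks 6029 and 8707 in the others. The nuclear receptor genes Hr4 and Hr3 had 3' UTR peaks of 171.1 and 137.1. All 4 were below the median of all IDR peaks. The growth list had Myc, whose 3' UTR summit (162.6) also lay in an exon of CG12535. The EGFR list had Raf, the Dpp and JAK/STAT list had Socs36E, and the lncRNA list had CR46035, Vinr and iab8, of the bithorax complex (96.89). No member of the Notch list (13), the Wnt and Hedgehog list (14), the RNA-binding list (23), the homeotic and Polycomb list (20), the meiotic arrest and spermatogenesis list (31) or the chromatin list (20) was a host. These lists are short selections, so this holds for the listed genes only. Outside the lists, Wnt6 (178.3) and JIL-1 (320.0) were hosts.

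Exonic peaks lay nearer to TSSs than other distal peaks, as did exonic DNA. The median distance was 1189 bp for the 201, compared with 3214 bp for intronic and 3416 bp for intergenic peaks. At 501 to 1000 bp lay 82 of the 201 (40.8%), where 23.5% of distal exonic DNA lies. For introns these shares were 16.4% of summits and 8.35% of DNA, and for intergenic DNA 14.4% and 7.75%. The ratio of these shares was 1.74 in exons, 1.96 in introns and 1.86 in intergenic DNA, so relative to the DNA the exonic peaks were not nearer to TSSs. The 1.74 mixes classes of unlike density. Within them the ratio was lower, at 1.2 in coding exons, 1.36 in 5' UTRs, 0.754 in 3' UTRs and 1.21 in non-coding exons. In 3' UTRs 12.3% of summits and 16.3% of DNA lay there, and in non-coding exons 50.6% and 42.0%. Just inside the 500-bp limit of the rule, 11 peaks at 501 to 524 bp had signals of 94.59 to 2562, among them Vinr, Fbl6, HmgD, CG15247 and 7 further lncRNA genes. Just outside it, at 484 to 499 bp, stood 3 exonic summits, at CR44420 with 278.7, CR43932 with 105.0 and CR44619 with 2180.

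Simple repeats were found most often at 5' UTR summits, in the IDR set and outside it. A run of 4 CA units, CACACACA, lay within 100 bp of 8 of 49 5' UTR summits (16.3%, Clopper-Pearson interval 7.32 to 29.7), 4 of 57 3' UTR, 4 of 81 non-coding and 1 of 14 coding summits. Over the 201 the share was 8.46%, compared with 3.04% of intronic, 1.78% of intergenic and 3.16% of all IDR summits. The share of the 201 depends on the window, at 1.99% within 50 bp and 14.9% within 200 bp. A run of 4 GA units, GAGAGAGA, lay at 7 of 49 5' UTR summits (14.3%, 5.94 to 27.2) and 2 of the other 152, against 1.53% of intronic and 2.09% of all IDR summits. Among 5' UTR peaks of the pooled list outside the IDR set the CA run was at 12.1%, inside the interval of the IDR peaks, and the GA run at 5.79%, just below it. The match closest to the summit is printed for the 3 strongest 5' UTR peaks with each repeat, with capitals marking that match and the same genome, strand and length as above. For CA these are Nup153 at chrX:16600043-16600071, JIL-1 at chr3L:11092324-11092352 and Rab35 at chrX:20159072-20159100. For GA they are Nup153 at chrX:16599905-16599933, Rab35 at chrX:20159110-20159138 and Pp2C1 at chrX:4686367-4686395. The run reads TG or TC on the plus strand where it lies on the other strand. At JIL-1 and Rab35 it goes on in lower case beyond the capitals.
Nup153, CA run: acgttttttgtTGTGTGTGcggcaacgct
JIL-1, CA run: cggagtgtgtgTGTGTGTGagtgggtgga
Rab35, CA run: tcccacactcaCACACACAggagcacact
Nup153, GA run: acgcacagacaGAGAGAGAaggcaggata
Rab35, GA run: tactctctctcTCTCTCTCtttcgcactc
Pp2C1, GA run: actcaggccttTCTCTCTCccgctctcgc

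Peaks with either run differed between libraries. Of the 11 5' UTR peaks with a CA or GA run, 5, 11 and 6 were among the strongest 8424 of replicates 1, 2 and 3, and 5 were unlisted in replicate 1. Of the 38 without, 31, 29 and 33 were found and 3 were unlisted in replicate 1. All IDR peaks showed the same order, with 59.9%, 91.0% and 87.7% of 424 peaks with a run found, against 83.3%, 83.7% and 89.4% of 8000 without. So replicate 1 held the fewest of these peaks and replicate 2 the most, and their part in the motif shares was not tested. Within each library the CA run was more frequent at strong than at remaining distal 5' UTR peaks, at 11.4%, 19.3% and 14.9% against 9.40%, 12.1% and 11.2%. That is a mean difference of 4.29 ± 2.68 percentage points, higher in 3 of 3 libraries (exact sign-flip permutation test, p = 0.25). The shares rest on few peaks, with 5 of 44 strong and 14 of 149 remaining ones in replicate 1. For the GA run the strong peaks had 9.09%, 17.5% and 10.6% and the remaining peaks 4.70%, 5.80% and 7.80%, a difference of 6.32 ± 4.76 percentage points with the same p.

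The shorter GAGAGA, bound by GAGA factor, which includes the longer run, was at 32 of 201 distal exonic summits (15.9%, 11.2 to 21.7). It was at 11.9% of intronic, 10.3% of intergenic and 11.5% of all IDR summits. By class it was at 22.4% of 5' UTR, 18.5% of non-coding, 10.5% of 3' UTR and 0 of 14 coding summits. In the replicate lists it was at 13.4%, 18.0% and 15.4% of the strong distal exonic peaks and at 5.71%, 10.04% and 8.66% of the remaining ones, a difference of 7.45 ± 0.631 percentage points in 3 of 3 libraries (exact sign-flip permutation test, p = 0.25). This test was not planned either and is no independent check. The strong and remaining peaks differ in exon class, with coding exons holding 14 of 224 strong and 1213 of 2067 remaining peaks in replicate 1. Within 5' UTRs alone the shares were 18.2%, 29.8% and 23.4% of strong and 15.4%, 19.3% and 19.5% of remaining peaks. The CHR motif differed over all exons too, at 25.4%, 28.2% and 26.7% of strong and 14.0%, 19.2% and 20.2% of remaining peaks.

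Most other motifs were about as frequent as at intronic peaks or less so. The BEAF-32 motif CGATA was at 19.9% of the 201 and 20.0% of intronic summits, and TGANTCA, the AP-1 motif, was at 5.97% and 6.10%. The E-box CAGCTG was at 8.46% and 5.61%. The CHR motif TTTGAA was at 25.9% and 32.2%, the TGIF motif TGTCA at 20.4% and 27.0%, the GATA motif TGATAA at 14.9% and 18.7%, and AGGTCA, part of the ecdysone response element, at 2.49% and 4.45%. The Zelda motif CAGGTAG was at 3 of 201 and 0.839% of intronic summits. The DRE, the M1BP motif and an E2F motif were each at 0 of 201, which allows a share of up to 1.49% (3 counts of 201) or 1.82% (upper Clopper-Pearson bound). The DRE, TATCGATA, was at 2.64% of all IDR summits, the M1BP motif, GGTCACAC, at 1.69%, and the E2F motif, TTTCGCGC, at 0.570%. Distal intronic summits held these 3 at 0.492%, 0.636% and 0.289%, each under both limits, so a difference from introns was not detectable with 201 peaks. Distal intergenic summits held them at 0.412%, 0.274% and 0.892%, so the E2F motif was more frequent there than over all IDR summits. A match is only a stretch of letters, and TATCGATA holds CGATA, while GAGAGAGA holds GAGAGA.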

How the data were processed

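The 3 ChIP-seq libraries were taken as replicates of 1 group, numbered by the labels' biological replicate numbers. Per the labels, chromatin was sonicated and size-selected. The authors deposited peak lists in dm6: relaxed lists for each replicate and for the pool, and an optimal IDR set. The signal used is the deposited enrichment value of each peak, not scaled between libraries. Programs and versions behind alignment and peak calling, like the threshold on IDR, are not given in the sources used. Lists in the dm3 build were not used here.

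Summits were placed on the Ensembl release 115 annotation, transposable elements left out, and sequences came from the RefSeq genome of the same assembly. Replicate comparisons used 10 two-sided exact sign-flip permutation tests, whose Benjamini-Hochberg adjusted p was 0.312 for those at 0.25 and 0.5 for those at 0.5. Those on motifs and on the X share were not planned. Motifs were scanned on both strands. Code was tested on simulated data. Named genes were all coding-exon peaks, the 10 strongest peaks, the 5 strongest of each other class, genes with 3 or more peaks, list genes and peaks near the TSS limit. Cals, Wnt6, the second peak of eas, Coq4 and the genes with printed repeats were chosen after their values were seen. Members, lists and motifs were chosen with earlier results of these data known. Of the 217 list symbols, 7 were not matched and are not analysed here, and the others gave 208 distinct genes, since some symbols name the same gene. Alternatives changed the TSS distance, TSS set, peak point, peak set, overlap, list depth, isoforms, motif window and replicates. The tools were Python 3.11.15, pandas 2.3.3, numpy 2.4.6, matplotlib 3.10.9 and scipy 1.17.1.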

Additional observations from a re-analysis of the deposited data

How the results depend on the processing

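No paired analysis was possible because the series has 1 group, so no groups share replicate numbers. The sign-flip tests compare sets of peaks within each library. With a TSS distance of 250 bp there were 316 distal exonic peaks (coding 26, 5' UTR 97) at 10.3 per Mb of distal exonic DNA. With 1000 bp there were 119 (5' UTR 19, non-coding 40) at 5.88 per Mb, and 6 list genes were hosts. With TSSs of protein-coding genes only the density was 10.2 per Mb. The stronger 50% of IDR peaks held 87 (coding 5, 5' UTR 18, 3' UTR 23, non-coding 41) at 3.29 per Mb, and the rank difference from intergenic peaks reversed to -78.5 and that from intronic peaks was 68.7 ± 153 (exact p = 1.0). With 50% overlap of both peaks these were 61.2 and 451. The cause was not tested. With exonic DNA in every isoform the 5' UTRs held 19. The share with GAGAGA was 8.46% within 50 bp and 24.4% within 200 bp. For counts and densities, leaving out each replicate in turn kept only the peaks found among the strongest of both other replicates. This stricter rule gave 9 to 11 coding and 28 to 33 5' UTR peaks. The density was 5.14 to 5.63 per Mb, with 6 to 7 host genes in the lists. Since a peak had to be found in both, these lower values do not measure the effect of dropping a replicate. The ratio of intronic to exonic density stayed between 6.47 and 10.2, and the X share of 3' UTR peaks between 43.1% and 56.5%. Of the other results' alternatives, 15 moved, all motif shares, and 102 did not. The alternatives for list genes and for the X share were chosen after seeing the data. Depth per library is unknown, and 3 libraries cannot give a p under 0.25.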
